A study of Mus musculus with 38 samples.

Results

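RNA-seq was performed on 8 mouse neural progenitor cell (NPC) cultures, in 6 of which the gene Trim28 had been targeted with CRISPR-Cas9 (Trim28-KO) and in 2 of which a gRNA against bacterial lacZ was used as a control. They are the 8 of the 38 samples of the series whose titles name NPCs, and all 8 were used. The NPCs came from the forebrain of Rosa26-Cas9 knock-in mice at embryonic day 13.5, so knockout and control cultures alike expressed Cas9-GFP, and were expanded for 10 days after lentiviral transduction before RFP+ cells were sorted. Trim28 was targeted by 3 gRNAs, named g3, g4 and g13, with 2 cultures each. The culture numbers in the titles fall into 2 series of 1 lacZ culture and 1 culture per gRNA. One holds lacZ-842 with KO-845 (g3), KO-848 (g4) and KO-851 (g13), the other lacZ-867 with KO-870 (g3), KO-873 (g4) and KO-876 (g13). What a series stands for is not given in the sources used here, nor is whether cultures of 1 series came from the same embryos, so the p-values measure the spread between these cultures, which may be technical. Where an effect is set beside another model, this is the cortex of 6 animals at 3 months of age, 3 Emx1-Cre +/-; Trim28-fl +/+ (Trim28-KO) and 3 controls that the labels give as Emx1-Cre +/-; Trim28-fl +/-. Cre is driven by Emx1 in the cells of the developing dorsal forebrain, and by these labels the controls had also lost 1 Trim28 allele, although the study's text in 1 place calls them Cre-negative.

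TRIM28, also called KAP1, is an epigenetic corepressor without DNA-binding activity of its own. KRAB zinc-finger proteins bring it to DNA, many of them to transposable elements (TEs), where it assembles the histone methyltransferase SETDB1 and HP1 proteins and H3K9me3 heterochromatin is formed. Endogenous retroviruses (ERVs), in the mouse above all those of the ERVK group such as IAP and MMERVK10C, are TEs silenced in this way, and their long terminal repeats can act as promoters for nearby genes.

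The 3 gRNA target sites are shown because they are the only designed difference between the knockout cultures. They are written 5′ to 3′ on the reverse strand, with the PAM in capitals.
g3: gcactccacacaatagctagTGG
g4: ggtccttgtgagcgttgagcTGG
g13: cgcactggttacacatgaccAGG
In GRCm38 they lie in the coding sequence of Trim28 on chromosome 7, g3 at 13025675 to 13025697 in exon 3, g4 at 13027726 to 13027748 in exon 4 and g13 at 13029921 to 13029943 in exon 13. Each matched this chromosome at 1 position.

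Between 9996885 (KO-876) and 18985593 (KO-870) reads were counted on genes in the Trim28-KO libraries, and 18488512 and 19922767 in lacZ-842 and lacZ-867. The cells carried markers of NPCs. Nes, an intermediate filament of progenitors, was at 259 to 1587 CPM (a gene's counts scaled to the normalized library size) in the knockout and at 529 and 1470 CPM in the control, and Sox2, a transcription factor of neural stem cells, at 398 to 691 CPM against 562 and 424 CPM. The 41 neural progenitor genes summed to 11790 to 13200 CPM in the knockout and to 14750 and 13260 CPM in lacZ-842 and lacZ-867, with Gsx2 alone at 0 throughout. The 43 neuronal genes summed to 2743 to 3447 CPM against 3047 and 2860 CPM. Of 15 microglia and leukocyte markers 7 had no count in any library, among them Cx3cr1, Tmem119 and Trem2, and the summed level of the 15 was between 34.9 and 71.5 CPM. The 15 endothelial and mural markers summed to between 4.46 and 14.6 CPM, with Cdh5 at 0, and the 14 fibroblast markers to between 14.4 and 25.2 CPM, with Lum and Postn at 0. One library, KO-845, stood apart from the other knockout libraries. Its 47 cell cycle genes summed to 3188 CPM against a median of 9901 CPM over the 6 knockout libraries and 6027 and 11370 CPM in lacZ-842 and lacZ-867, and its 22 astrocyte genes summed to 7005 CPM against a median of 2157 CPM and 3799 and 1966 CPM in the same controls. In bulk libraries fewer cells of a type and less RNA per cell cannot be told apart. Counts of called genes are therefore given with and without KO-845.

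Trim28 itself fell in the knockout cultures. Trim28 mRNA (ENSMUSG00000005566.14, chromosome 7, 12999114 to 13031035, forward strand, GRCm38) was at 157 CPM in lacZ-842 and 204 CPM in lacZ-867. It was at 36.8 and 39.6 CPM with g3, at 42.2 and 53.4 CPM with g4 and at 62.3 and 73.6 CPM with g13. No knockout library reached a control, and in each series the levels stood in the same order, g3 lowest and g13 highest. This order is of mRNA and no measure of remaining protein, as the study reports efficient editing with each gRNA and a loss of nearly all TRIM28 protein. The log2 fold change was -1.81 (SE 0.226, adjusted p = 0.0118, edgeR's quasi-likelihood test with the series as a block), with -1.73 and -1.89 within the 2 series. Of the 34 other genes of the corepressor complex and of heterochromatin that were tested, 0 passed. SETDB1, the partner methyltransferase, had its transcript Setdb1 at 106 to 130 CPM against 94.9 and 119 CPM, and the HP1 gene Cbx5 had a median of 1081 CPM against 1110 and 1191 CPM. The log2 fold changes of the list ranged from -0.395 to 0.274 around a median of -0.0460, beside a median of 0.00644 over all 16469 genes tested.

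Of these 16469 genes, 93 were higher and 43 lower in Trim28-KO than in lacZ NPCs, where a call needed an adjusted p (Benjamini-Hochberg, edgeR) under 0.05 together with a log2 fold change beyond 0.5 in either direction. This was 0.565% of the genes in the higher and 0.261% in the lower direction, and 1396 genes had an unadjusted p under 0.05. The increases were larger than the decreases. A log2 fold change above 2 was found for 44 of the 93, and one below -2 for 8 of the 43. For 12 of the 93 there was no read in either control library. All 136 called genes lay beyond the lacZ library of their own series in each of the 6 knockout libraries, although for 17 of them the knockout and control ranges overlapped across the series. The calls were made from the same values with the series as a block. The position of the libraries therefore describes the called genes and is no further evidence for them. Of the higher genes 25.8% were not protein-coding, of the lower genes 2.33% and of all tested genes 20.8%.

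The number of calls depended on single libraries. Without KO-845 it rose to 329 higher (2.02% of 16258 genes tested) and 256 lower (1.57%), and all 93 and all 43 genes were among them. Without KO-851 it was 43 and 9, without KO-870 24 and 3, without KO-873 28 and 6, and without KO-876 72 and 28. Leaving out a control library, which leaves 1 lacZ culture assumed to vary like the others, gave 4 and 1 (without lacZ-842) and 6 and 1 (without lacZ-867). Without the block the numbers were 29 and 3, and all of these 29 and 3 were among the 93 and 43. Fbxw19, Tcfl5, Vmn1r210, Gm14139 and Car3 were the 5 of the 136 genes called in each of the 8 fits that left out a library. Every other gene call was lost without at least 1 library, most often without a control. That of Trim28 was lost without lacZ-842 (adjusted p = 0.273, edgeR) and without lacZ-867 (0.294), at log2 fold changes of -1.89 and -1.74.

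**Figure D1:**
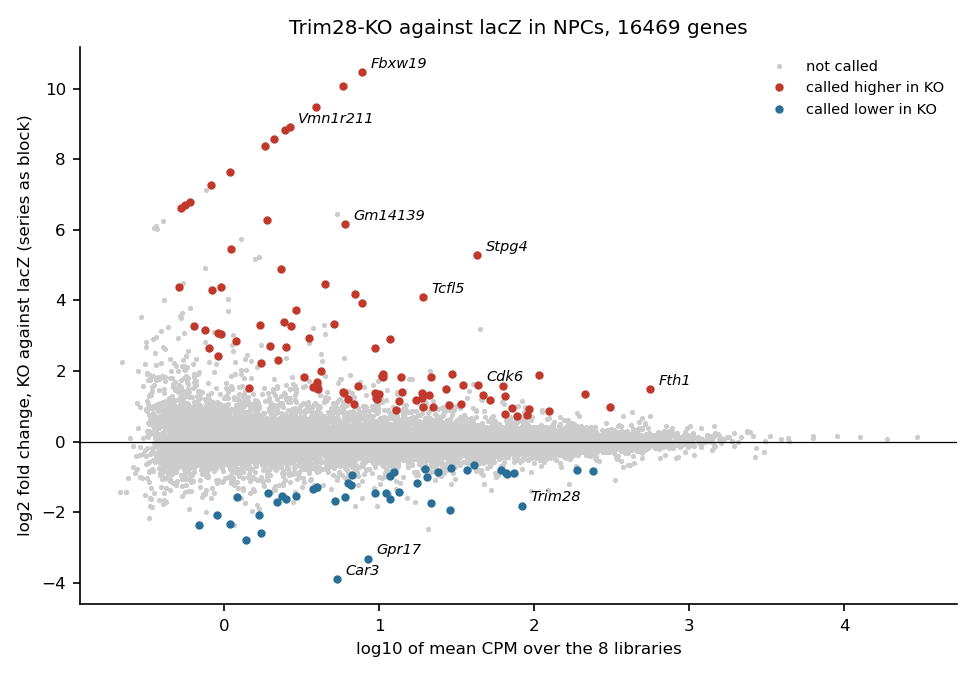
Log2 fold change of Trim28-KO against lacZ NPCs for 16469 genes (y axis, series as block) against the log10 of the mean CPM over the 8 libraries (x axis), with called genes in red (93 higher) and blue (43 lower). The genes with log2 fold changes above 6 have low levels and little or no signal in the controls, so that the height of those without any control read depends on the prior count of the fit.

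The largest changes were in genes that were silent in the controls, and several of them were neighbours. Fbxw19 and Fbxw16, F-box proteins with WD repeats of a family that joins ubiquitin ligases to their substrates, lie next to each other on chromosome 9. Fbxw19 (ENSMUSG00000074061.4, 109476654 to 109495875, reverse strand) had 0 counts in both lacZ libraries and between 7.50 and 15.2 CPM in the 6 knockout libraries, with a median of 9.66. Set against 3 counts in each library in place of 0, it was at least 66.4-fold higher (adjusted p = 0.00214, edgeR). Fbxw16 was at 0 in both controls and at 2.82 to 10.3 CPM (median 4.78) in the knockout, the highest value being that of KO-845, and was at least 33.7-fold higher (adjusted p = 0.0181, edgeR). Gm42494 and Gm42493, transcripts on the opposite strand that overlap Fbxw16, were also at 0 in both controls and at least 15.7-fold and 4.48-fold higher. All 4 tested genes of this stretch, 109432316 to 109495875, were thus called, and in none did a knockout library overlap a control. Of the 16 genes listed for this Fbxw family, 3 had enough reads to be tested, a filter that genes silent in the controls passed through their knockout level. Fbxw19 alone of them was called without KO-870, KO-873, KO-876 or either control. The third, Fbxw17, was at 6.77 and 7.91 CPM in the controls and at a median of 5.58 CPM in the knockout.

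The promoter windows of Fbxw16 and Fbxw19, from 250 bases before to 50 bases after the start of the RefSeq transcript (GRCm38.p6), are shown because both genes went from no read to expression. That of Tcfl5, described below, is set beside them. CpG dinucleotides are in capitals.
Fbxw16: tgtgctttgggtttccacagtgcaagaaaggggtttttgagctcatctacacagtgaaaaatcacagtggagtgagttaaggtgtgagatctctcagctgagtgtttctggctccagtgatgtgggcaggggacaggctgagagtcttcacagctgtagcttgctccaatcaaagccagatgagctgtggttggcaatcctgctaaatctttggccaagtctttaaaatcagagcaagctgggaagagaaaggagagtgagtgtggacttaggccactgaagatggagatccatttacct
Fbxw19: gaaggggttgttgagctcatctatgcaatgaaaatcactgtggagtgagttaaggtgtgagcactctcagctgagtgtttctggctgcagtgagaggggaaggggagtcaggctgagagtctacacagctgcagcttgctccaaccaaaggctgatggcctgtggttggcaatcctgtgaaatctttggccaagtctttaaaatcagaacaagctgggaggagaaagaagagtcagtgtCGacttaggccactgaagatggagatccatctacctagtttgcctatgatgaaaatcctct
Tcfl5: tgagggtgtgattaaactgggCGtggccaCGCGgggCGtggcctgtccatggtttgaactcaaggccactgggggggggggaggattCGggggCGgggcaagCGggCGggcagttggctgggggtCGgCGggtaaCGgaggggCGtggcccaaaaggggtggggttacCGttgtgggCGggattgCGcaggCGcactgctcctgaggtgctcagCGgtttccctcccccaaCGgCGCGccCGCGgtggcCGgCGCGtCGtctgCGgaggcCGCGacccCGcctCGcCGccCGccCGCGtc
The windows lie on the reverse strand at chr9:109449091-109449390, chr9:109495805-109496104 and chr2:180642642-180642941. Those of the 2 Fbxw genes are near copies of each other, with 194 of 300 bases of Fbxw16 in shared runs of at least 8 bases, the longest of 29. Reads that fit both genes were not counted, so the levels of such copies may be too low. The Fbxw windows hold 0 and 1 CpG and that of Tcfl5 holds 35, beside a median of 20 over the 11089 tested genes with a window. Only 50 of the 93 higher genes had a window, so that a comparison of the group is void.

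Tcfl5, a basic helix-loop-helix factor known from male germ cells, had one of the most even increases. It was at 2.15 and 0.846 CPM in the 2 controls and between 23.4 and 26.8 CPM in the 6 knockout libraries (median 25.0), so that all knockout cultures were close together and far from the controls. The log2 fold change was 4.10 (SE 0.291, adjusted p = 0.000641, edgeR). It was the only higher gene among 11 tested genes of the germline and of pluripotency, of 44 in the list. Tdrd7, a Tudor protein of germ granules, fell from 49.9 and 58.7 CPM to a median of 31.8 CPM (25.0 to 36.7, log2 fold change -0.81, adjusted p = 0.0156, edgeR). The germline genes Tdrkh and Sycp3 were not called, with log2 fold changes of -0.01 and -0.14. Without KO-845 the list had 2 higher genes and 1 lower, where 2.02% of all genes were called higher and 1.57% lower.

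On chromosome 13, between 22825875 and 23037957, all 6 tested genes rose, and all are pheromone receptor genes or pseudogenes. Vomeronasal receptors of the V1R family are normally used by sensory neurons of the vomeronasal organ. Vmn1r211 had no read in either control and was at 2.31 to 4.80 CPM (median 3.36) in the knockout, at least 22.7-fold higher (adjusted p = 0.00494, edgeR). Vmn1r210 was at 0 in both controls and at 1.96 to 3.16 CPM in the knockout, at least 17.9-fold higher (adjusted p = 0.00229, edgeR). Vmn1r213, Vmn1r212, Vmn1r214 and the pseudogene Vmn1r-ps114 were at 0 in both controls too, with knockout medians of 1.53, 1.06, 0.885 and 0.664 CPM. No knockout library was at 0 for any of the 6, so the groups did not overlap. Of 1959 vomeronasal and olfactory receptor genes, 28 had enough reads to be tested and 7 were called higher, the other one being Olfr1349, at 1.83 to 3.25 CPM against 0.269 and 0.498 CPM. A receptor silent in the controls entered the test only if it had reads in the knockout, so these 28 do not stand for the family. Over all genes 0.565% were called higher, and 2.02% without KO-845. The 7 calls became 13 without KO-845, 2 without KO-870, 3 without KO-873 and 1 without either control. The V1R genes are close relatives of each other. Reads that fit several of them were not counted, so their single levels are uncertain.

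Another pair of neighbours was silent in the controls on chromosome 6. BC048671 (90301219 to 90305449) was at 1.24 to 7.80 CPM (median 2.69) in the knockout, highest in KO-845, at least 21.3-fold above the floor (adjusted p = 0.0475, edgeR). The transcript Gm43891 (90296222 to 90299333) was at 3.19 to 11.5 CPM, at least 49.8-fold higher (adjusted p = 0.0122, edgeR). Stpg4, a gene of the sperm-tail repeat family on chromosome 17, was at 0.806 and 2.04 CPM in the controls, at 6.20 CPM in KO-845 and at 32.6 to 101 CPM in the other 5 knockout libraries. All of its knockout libraries were above both controls, but over a wide range (log2 fold change 5.29, SE 0.798, adjusted p = 0.0202, edgeR). The lincRNA Gm47015 had no read in lacZ-842, 0.0498 CPM in lacZ-867 and 1.49 to 4.48 CPM in the knockout (log2 fold change 6.29, adjusted p = 0.00961, edgeR).

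KRAB zinc-finger genes, which encode the adaptors of TRIM28 itself, were among the increased genes, again in chromosomal groups. Of 335 tested genes with a Zfp symbol (a list that also holds zinc-finger genes without a KRAB domain) 9 rose and 1 fell, with a median log2 fold change of 0.0977 beside 0.00644 over all genes. Over all genes 0.565% were called higher and 0.261% lower. On chromosome 2, Gm14139, Gm14124 and Zfp345 were the 3 called of 9 tested genes between 150181755 and 150485091. Gm14139 was at 0.107 and 0.0995 CPM in the controls and at 5.40 to 11.9 CPM (median 6.91) in the knockout (log2 fold change 6.16, SE 0.417, adjusted p = 0.000623, edgeR). Zfp345 was at 0.269 and 0.746 CPM in the controls and at 7.01 to 13.6 CPM (median 8.29) in the knockout (log2 fold change 4.18, SE 0.387, adjusted p = 0.00229, edgeR). In neither gene did the groups overlap.

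On chromosome 4, Zfp992, Zfp993, Zfp991 and Zfp982 were called, 4 of 8 tested genes between 146449023 and 147513486. Zfp992 rose from 0.752 and 0.547 CPM to a median of 6.76 CPM (4.42 to 8.35, log2 fold change 3.34, adjusted p = 0.00236, edgeR) and Zfp982 from 0.0537 and 0.149 CPM to a median of 0.861 CPM (0.587 to 1.39, log2 fold change 3.17, adjusted p = 0.0493, edgeR). On chromosome 9 the called neighbours were Zfp872, its antisense transcript 1810064F22Rik and Zfp809. Zfp872 was at 0 and 0.199 CPM in the controls and at 1.18 to 6.02 CPM in the knockout, with the 3 knockout cultures of the lacZ-842 series below those of the lacZ-867 series (log2 fold change 4.89, adjusted p = 0.00855, edgeR). Zfp809, the adaptor that recognises the primer binding site of murine leukaemia viruses, rose from 16.6 and 15.1 CPM to a median of 31.7 CPM (28.2 to 36.6, log2 fold change 1.02, adjusted p = 0.0194, edgeR). It overlaps an ERVK copy on its own strand that was itself called higher, and the same reads can count for both. The most abundant members, Zfp445 and Zfp664, had log2 fold changes of 0.13 and 0.19 and were not called. In the fit without KO-845, 2.02% of all genes were called higher. Without KO-845 the number of higher Zfp genes was 19, without the block 2, without KO-851 5, without KO-870 or KO-873 3, without lacZ-842 0 and without lacZ-867 1. Members of these clusters are near copies of each other. Reads that fit several of them were not counted, so their single levels are uncertain.

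The clustered protocadherins, adhesion molecules that give single neurons their surface identity, held the longest run of called genes. Between 37489465 and 37841873 of chromosome 18, 14 of 35 tested genes were called, 12 higher and 2 lower. Of the 44 tested members of the alpha, beta and gamma clusters (56 in the table) 11 rose and 1 fell, with a median log2 fold change of 0.216. Over all genes 0.565% were called higher and 0.261% lower. Pcdhgb4 was at 7.95 and 6.87 CPM in the controls and at 20.8 to 33.3 CPM (median 26.7) in the knockout, without overlap (log2 fold change 1.82, SE 0.166, adjusted p = 0.00229, edgeR). Pcdhga12 rose from 1.5 and 1.09 CPM to a median of 5.06 CPM (3.65 to 6.73, log2 fold change 2.00, adjusted p = 0.0154, edgeR). Pcdhga8 was at 5.43 and 1.54 CPM in lacZ-842 and lacZ-867 and at 6.18 to 24.4 CPM in the knockout (log2 fold change 1.93, adjusted p = 0.0187, edgeR), and Pcdhgc5 rose from 1.40 and 1.64 to a median of 4.42 CPM (log2 fold change 1.6, adjusted p = 0.0300, edgeR).

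The member that fell was Pcdhgc3, from 364 and 351 CPM to a median of 198 CPM (169 to 234, log2 fold change -0.83, adjusted p = 0.0198, edgeR), and it is named here after its values were seen. The beta genes Pcdhb19 and Pcdhb20 were not called, with log2 fold changes of -0.27 and 0.20. The gamma genes share their last exons and overlap on the same strand, so counts per gene rest on the reads that could be assigned to 1 of them. In the fit without KO-845, 2.02% of all genes were called higher. The count of higher members was 13 without KO-845, 1 without the block, 3 without KO-851, 2 without KO-870, 2 without KO-873, 7 without KO-876 and 0 without either control library.

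**Figure D2:**
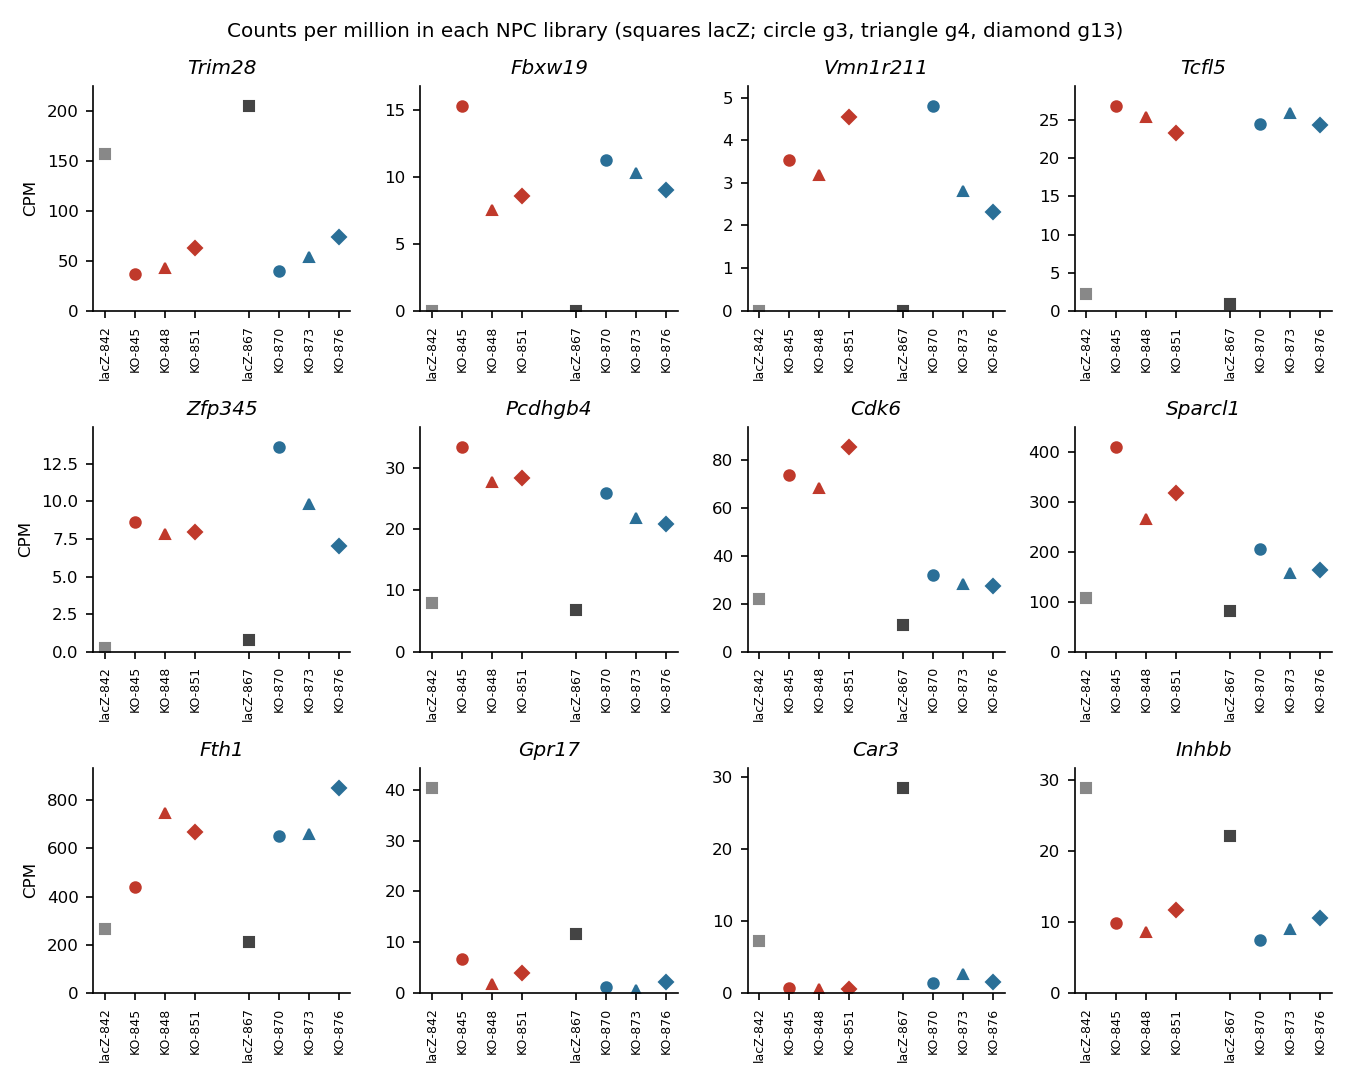
CPM (y axis, linear from 0, a scale per gene) of Trim28 and 11 called genes in each of the 8 NPC libraries, with squares for lacZ, circles for g3, triangles for g4 and diamonds for g13, and the 2 series side by side in red and blue. Tcfl5 stood at 23.4 to 26.8 CPM in all 6 knockout libraries, whereas Cdk6 and Sparcl1 differed between the series, with all 3 knockout libraries of the lacZ-842 series at higher levels than those of the lacZ-867 series.

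Among the 43 genes that fell were genes of the oligodendrocyte lineage and of neurons. Car3, a carbonic anhydrase, had the largest decrease. It was at 7.20 and 28.5 CPM in lacZ-842 and lacZ-867 and at 0.456 to 2.59 CPM (median 0.987) in the knockout, below both controls throughout (log2 fold change -3.88, SE 0.246, adjusted p = 0.000623, edgeR). Gpr17, a receptor of committed oligodendrocyte precursors, was at 40.3 CPM in lacZ-842 and 11.5 CPM in lacZ-867, and at 0.518 to 6.57 CPM in the knockout with the highest value in KO-845 (log2 fold change -3.31, SE 0.420, adjusted p = 0.0122, edgeR). Lims2, a LIM protein of focal adhesions whose gene overlaps Gpr17 on the opposite strand, fell from 5.54 and 2.04 CPM to a median of 0.323 CPM (log2 fold change -2.79, adjusted p = 0.0312, edgeR). Zfp488, a factor of oligodendrocyte differentiation, fell from 3.39 and 1.99 CPM to a median of 0.365 CPM (log2 fold change -2.34, adjusted p = 0.0499, edgeR). Of 25 tested genes of this lineage these 3 fell and 1 rose, Trf, with a median of -0.294, and Sox8 and Lhfpl3 were not called (log2 fold changes -0.08 and -0.41). Over all genes 0.261% were called lower and 0.565% higher.

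The lineage as a whole was at 502 to 1098 CPM in the knockout (median 591) and at 952 and 674 CPM in lacZ-842 and lacZ-867, with the highest knockout value in KO-845, and the part of this in the lower levels of single genes was not tested. Without KO-845, 1.57% of all genes were called lower. The number of lower members was 10 without KO-845, 1 without KO-851, KO-873 or KO-876, and 0 without the block, without KO-870 or without either control.

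Of 27 tested neuronal genes 4 fell and 1 rose, and the median was -0.225. Over all genes 0.261% were called lower and 0.565% higher, and without KO-845 1.57% and 2.02%. Ina, a neurofilament protein, fell from 5.37 and 3.98 CPM to a median of 1.6 CPM (1.37 to 1.73, log2 fold change -1.55, adjusted p = 0.0154, edgeR). Stmn3, a microtubule regulator, fell from 19.8 and 16.0 CPM to 6.23 CPM (log2 fold change -1.47, adjusted p = 0.0306, edgeR), and Gad1, the enzyme of GABA synthesis, from 38.4 and 22.4 CPM to 11.6 CPM (8.45 to 22.7, log2 fold change -1.18, adjusted p = 0.0433, edgeR). The highest knockout value of Gad1 just overlapped lacZ-867. The adhesion molecule Cntn1 was the fourth. The gene that rose was Pvalb, a calcium-binding protein of interneurons, at 0.0537 and 0.0498 CPM in the controls and 1.01 to 1.44 CPM in all 6 knockout libraries (log2 fold change 4.39, SE 0.478, adjusted p = 0.00608, edgeR). Abundant members did not pass, with log2 fold changes of 0.12 for Map2 and 0.39 for Gap43. The list summed to 2743 to 3447 CPM in the knockout and to 3047 and 2860 CPM in the controls, ranges that overlap. The number of lower neuronal genes was 7 without KO-845, 1 without the block, 0 without KO-851, KO-870 or KO-873 and 0 without either control, and 2 without KO-876.

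Other decreases were found in single receptor and channel genes, where 0.261% of all genes were called lower. In the fit without KO-845 1.57% were called lower and 2.02% higher. Of 18 tested glutamate receptor genes 1 was called, Gria1, an AMPA receptor subunit, which fell from 1.24 and 2.19 CPM to a median of 0.359 CPM (log2 fold change -2.37, adjusted p = 0.0419, edgeR), while Grm5 and Gria2 were at log2 fold changes of 0.03 and -0.07. Without KO-845 the kainate receptor genes Grik3 (-1.58) and Grik2 (-0.67) were lower too and the NMDA receptor gene Grin2a (2.49) higher, and there was no call in the list without KO-851, KO-870, KO-873, KO-876, either control or the block. Kcne1l, a potassium channel subunit, was at 7.63 CPM in lacZ-842 but only at 1.54 CPM in lacZ-867, and at 0.173 to 2.14 CPM in the knockout, so that groups overlapped across the series (log2 fold change -2.60, adjusted p = 0.0167, edgeR). Olfm2, a secreted olfactomedin, fell from 75.5 and 53 CPM to a median of 14.0 CPM (9.75 to 25.7, log2 fold change -1.95, adjusted p = 0.0311, edgeR). Ak5, an adenylate kinase, and Fam19a4, a secreted protein, had log2 fold changes of -2.08 and -2.07.

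Single members of signalling pathways changed. Over all genes 0.565% were called higher and 0.261% lower, so 1 call in a list, here and in the other lists, is no result about the list as a whole. In the fit without KO-845 the shares were 2.02% and 1.57%. Of 27 tested genes of the BMP, TGF-beta and activin pathway 1 was called, the ligand gene Inhbb, whose product is the beta subunit of activin B. It was at 28.8 and 22.0 CPM in the controls and at 7.41 to 11.6 CPM (median 9.43) in the knockout, without overlap (log2 fold change -1.42, SE 0.171, adjusted p = 0.0103, edgeR). The receptors Bmpr2 and Bmpr1a had log2 fold changes of 0.06 and 0.05. Without KO-845 the list had 2 higher and 2 lower genes, and without either control 0. Of 27 tested Wnt genes 1 was called, Nkd1, a feedback inhibitor of the pathway, at 31.9 CPM in lacZ-842, 11.4 CPM in lacZ-867 and 3.91 to 11.8 CPM in the knockout (log2 fold change -1.45, SE 0.192, adjusted p = 0.0140, edgeR). Each knockout library lay below the control of its own series, but KO-851 was above lacZ-867. The receptor Fzd3 and the ligand Wnt5a were at -0.07 and 0.06 on the log2 scale. Without KO-845 the ligand gene Wnt4 (-1.73) was lower as well and the receptor genes Fzd1 (1.01) and Fzd10 (0.56) were higher. The list had 2 lower genes without KO-876 and none without KO-870, either control or the block.

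Of 46 tested cell cycle genes 1 was called, where 0.565% of all genes were higher. In the fit without KO-845 2.02% were higher and 1.57% lower. The called gene was the kinase gene Cdk6, which drives entry into the cycle from G1. It was at 21.9 CPM in lacZ-842 with 68.5 to 85.3 CPM in the knockout cultures of that series, and at 11.1 CPM in lacZ-867 with 27.4 to 32.0 CPM in its own. Each knockout library was thus above both controls, and the level of the series differed (log2 fold change 1.59, SE 0.160, adjusted p = 0.00377, edgeR). The D-type cyclins with which CDK6 works, Ccnd1 and Ccnd2, had log2 fold changes of 0.25 and 0.26 and were not called, and the list's median was -0.141. Sparcl1, a matrix protein secreted by astrocytes, was the 1 called of 21 tested astrocyte genes, with 107 and 82.3 CPM in the controls and 158 to 409 CPM in the knockout, highest in KO-845 (log2 fold change 1.35, SE 0.211, adjusted p = 0.0229, edgeR). The sum of the astrocyte genes ranged from 1760 to 7005 CPM in the knockout and overlapped the controls. Without KO-845 this list had 2 higher and 3 lower genes, and without KO-851, KO-870, KO-873, either control or the block it had none. The cell cycle list kept its 1 call without KO-845 and lost it without either control or the block.

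Of 28 tested genes of iron handling and the lysosome 3 rose, where 0.565% of all genes were called higher, and 2.02% without KO-845. Fth1, the ferritin heavy chain that stores iron, was at 263 and 211 CPM in the controls and at 441 to 850 CPM (median 664) in the knockout, lowest in KO-845, and the groups did not overlap (log2 fold change 1.49, SE 0.238, adjusted p = 0.0257, edgeR). The light chain Ftl1 was at a median of 495 CPM against 597 and 570 CPM and did not pass (log2 fold change -0.14). Trf, transferrin, rose from 4.51 and 4.58 CPM to a median of 11.4 CPM (log2 fold change 1.35, adjusted p = 0.0308, edgeR), and the protease gene Ctsh from 21.8 and 15.6 CPM to 39.9 CPM (log2 fold change 1.07, adjusted p = 0.0260, edgeR). The list's median was 0.0451, 4 of its members were called without KO-845 and 0 without the block, without KO-851, KO-870 or KO-873 or without either control. Fth1 has processed copies in the genome, and reads that match several places were not counted.

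Genes that respond to viral nucleic acid and interferon had a median log2 fold change of 0.146. Of 58 tested 1 was called, where 0.565% of all genes were higher, and 2.02% without KO-845. The called gene was Gbp9, of the interferon-inducible guanylate-binding proteins, at 4.25 and 5.22 CPM in the controls and 13.8 to 19.9 CPM in the knockout (log2 fold change 1.82, SE 0.207, adjusted p = 0.00836, edgeR). Gbp9 overlaps an ERVK copy of LTR10_RN on its own strand that was itself called higher (log2 fold change 2.26). The same reads can count for both, and the part of the copy in the level of Gbp9 was not tested. The double-stranded RNA sensor gene Eif2ak2 and the antigen-presentation gene B2m were not called (0.10 and 0.17), nor was Isg15, named after its values were seen (-0.11). Without KO-845 the count was 4, with Gbp4 (log2 fold change 1.91), Tmem173 (1.66), which encodes the nucleic acid sensor adaptor STING, and Trim30d (1.59) beside Gbp9, and without either control it was 0. With all libraries no member of 11 other lists was called. Beside the corepressor complex these were imprinted genes (39 tested, median -0.0439), p53 targets (37, median 0.0926), neural progenitor genes (38, median -0.0550), the 3, 8 and 2 tested markers of microglia, vessels and fibroblasts, MAPK feedback genes (22, median 0.121), cholesterol synthesis (23, median 0.0586), the integrated stress response (25, median -0.118), hypoxia and glycolysis (29, median -0.0526) and the extracellular matrix (35, median -0.0225). The p53 target genes Trp53inp1 and Ccng1 had log2 fold changes of 0.18 and 0.12, the imprinted genes Gnas and Cd81 of 0.02 and 0.07. Without KO-845 there were calls in 5 of these 11 lists. In that fit 2.02% of all genes were called higher and 1.57% lower, so 1 call is no result about its list. They were Mest, an imprinted gene (-0.60), the p53 target Gdf15 (-1.51), the MAPK inhibitor Il17rd (-0.63), Slc7a11, the cystine transporter of the stress response (1.19), and in the matrix list 4 higher genes, the collagen genes Col28a1, Col12a1 and Col5a2 and Crispld2.

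**Figure D3:**
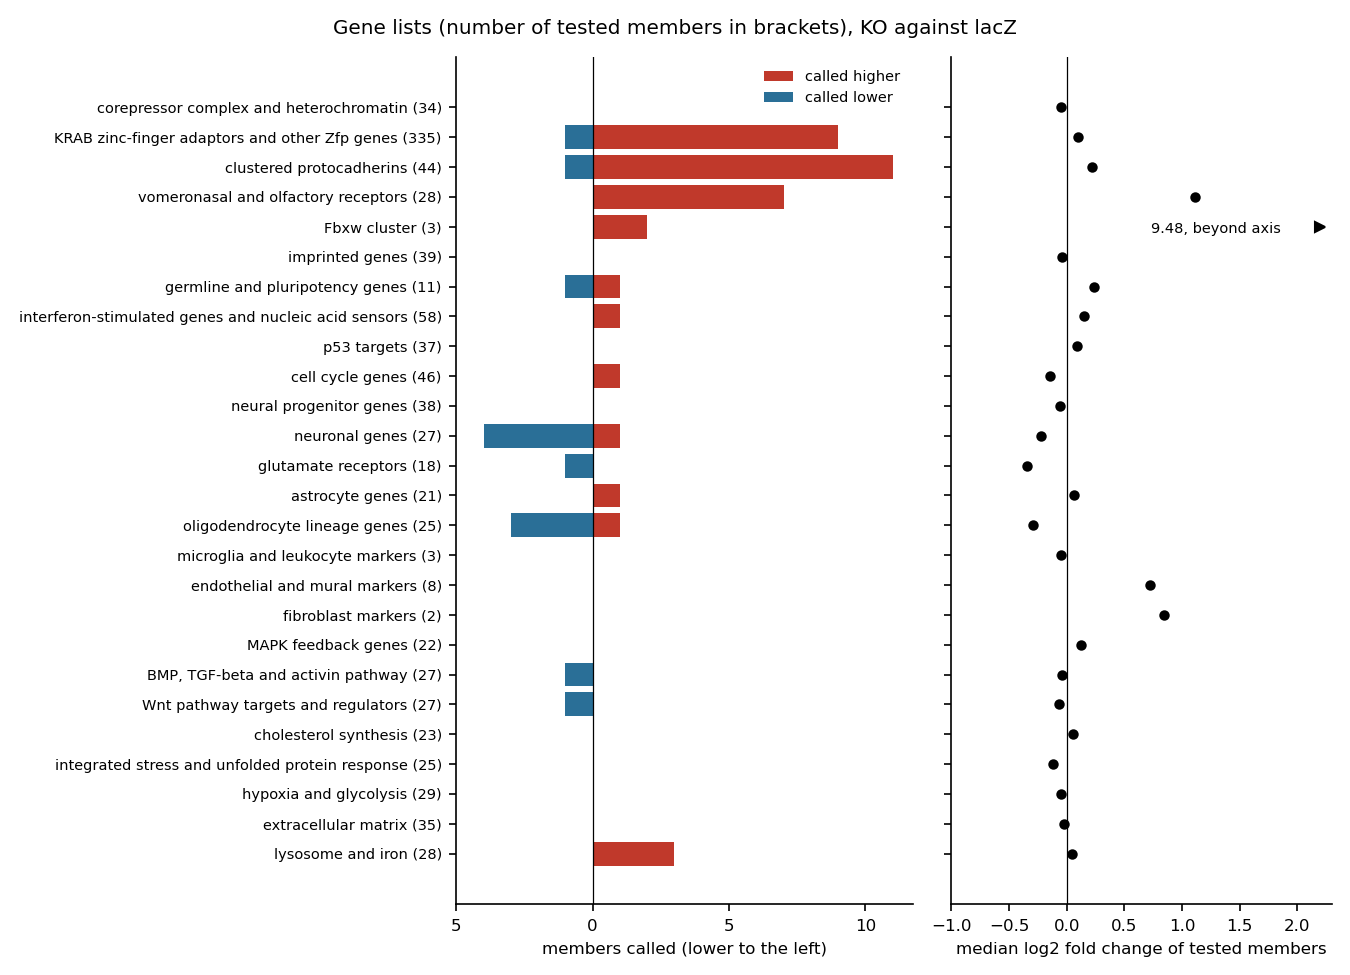
Members of the 26 gene lists called higher (red, to the right) or lower (blue, to the left) in Trim28-KO NPCs (left panel, number of tested members in brackets) and the median log2 fold change of the tested members (right panel, the Fbxw list at 9.48 lies beyond the axis and is drawn as an arrowhead). The protocadherin list has the most calls, 11 higher and 1 lower, and the 37 p53 targets and 38 neural progenitor genes have 0.

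Among TE subfamilies, counted over all their copies by TEtranscripts and scaled among themselves, 9 of 800 were higher in Trim28-KO NPCs (1.12%) and 0 were lower (edgeR, 100 at an unadjusted p under 0.05, 59 of them higher). DESeq2 called 1 lower. All 9 were ERVK subfamilies, a group with 239 tested members and a median log2 fold change of 0.0740. The number was 5 without lacZ-842 and 5 without lacZ-867. The internal sequence MMERVK10C-int was at 477 and 746 CPM of the TE counts in the controls and at 6826 to 12020 CPM (median 9002) in the knockout (log2 fold change 3.90, SE 0.185, adjusted p = 9.03e-07, edgeR). RLTR10C was at 154 and 177 CPM against 661 to 1286 CPM (log2 fold change 2.49, SE 0.170, adjusted p = 1.03e-05, edgeR) and RLTR34B_MM at 68.8 and 85.5 CPM against 421 to 604 CPM (log2 fold change 2.70, SE 0.163, adjusted p = 4.63e-06, edgeR). In these the groups were far apart.

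IAP1-MM_I-int, IAP1-MM_LTR, IAPLTR3-int and IAPLTR4_I varied more between the knockout libraries, relative to their means. IAP1-MM_I-int was at 87.1 and 252 CPM in lacZ-842 and lacZ-867 and at 1104 to 3537 CPM in the knockout, highest in KO-845 (log2 fold change 3.58, SE 0.525, adjusted p = 0.00589, edgeR), and IAP1-MM_LTR was at 33.6 and 68.1 CPM against 227 to 789 CPM (log2 fold change 3.33, SE 0.527, adjusted p = 0.00841, edgeR). IAPLTR3-int differed between the series. It was at 59.1 to 92.2 CPM in the 3 knockout cultures beside lacZ-842, itself at 13.8 CPM, and at 287 to 409 CPM in the 3 beside lacZ-867, itself at 7.91 CPM, with log2 fold changes of 2.37 and 5.49 in turn. It passed with the series as a block (log2 fold change 4.10, SE 0.518, adjusted p = 0.00196, edgeR) and not without it (adjusted p = 0.163). IAPLTR4_I rested on 1 read in each control and on 7 to 36 reads in the knockout libraries (log2 fold change 3.79, adjusted p = 0.0305, edgeR). IAP-d-int varied little, at 186 to 226 CPM in the knockout against 68.8 and 64.9 CPM in lacZ-842 and lacZ-867 (log2 fold change 1.59). RMER19B2 was called with a log2 fold change of 0.61.

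**Figure D4:**
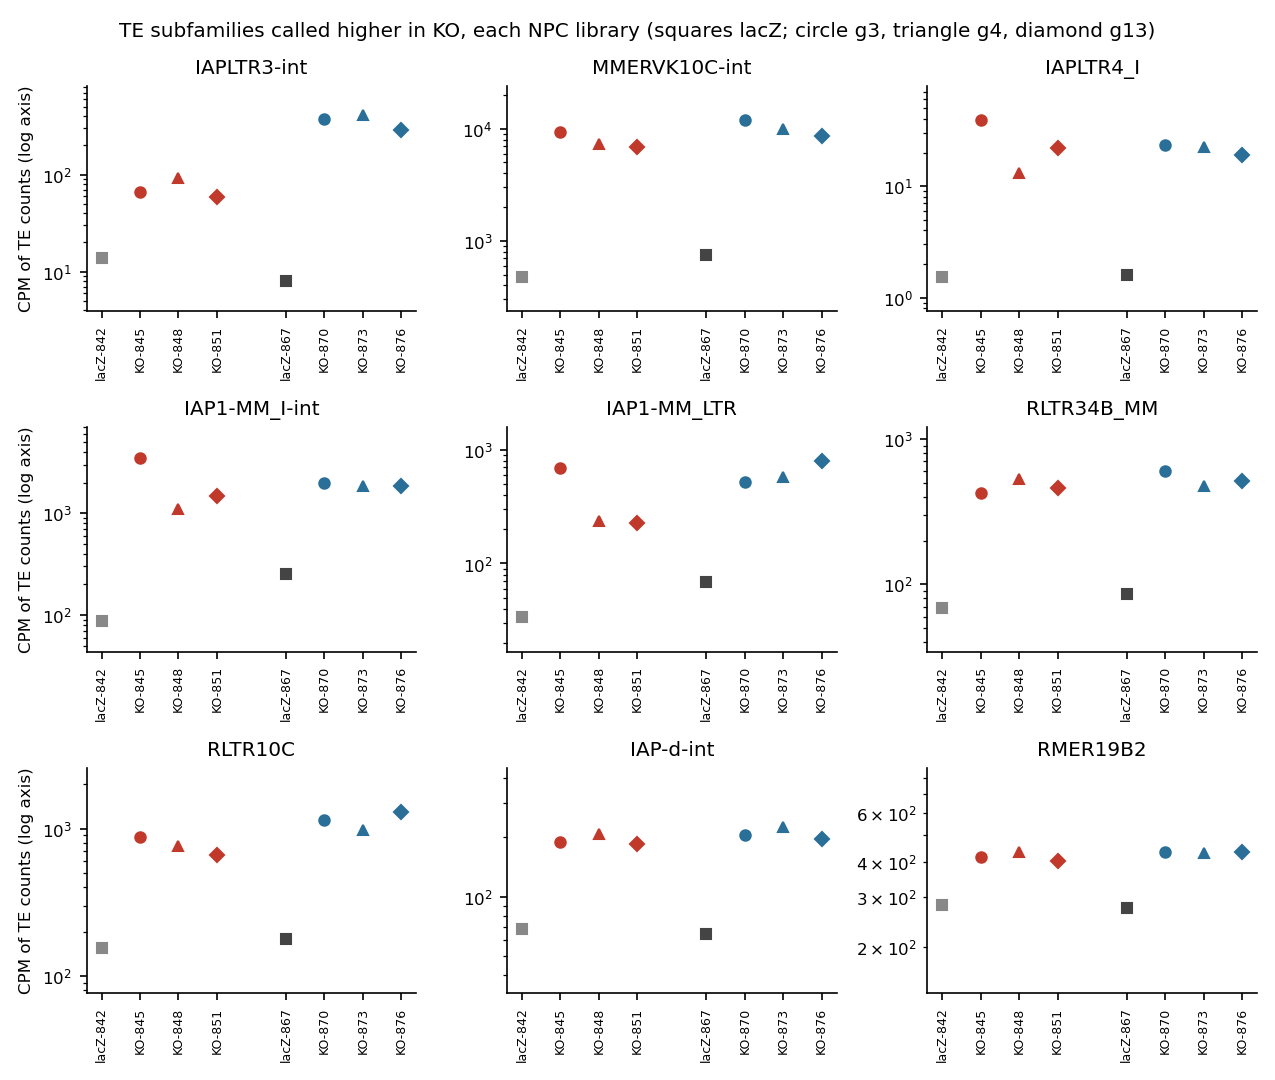
CPM relative to the TE counts (y axis, log scale, a range per panel) of the 9 TE subfamilies called higher, in each of the 8 NPC libraries, with squares for lacZ, circles for g3, triangles for g4 and diamonds for g13. In each panel all 6 knockout libraries lie above both controls, and IAPLTR3-int is higher in the knockout cultures of the lacZ-867 series (287 to 409 CPM) than in those of the other (59.1 to 92.2 CPM).

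Outside ERVK there was no call on the scale of the TE total. This covered 117 L1, 78 ERV1, 69 ERVL, 84 ERVL-MaLR and 16 Alu subfamilies, whose medians lay between -0.0908 (Alu) and 0.0148 (L1). The subfamily with the smallest p among those not called was LTR84b of the ERVL group, at 4.59 and 9.50 CPM against 24.6 to 80.1 CPM (log2 fold change 2.65, adjusted p = 0.0558, edgeR). TEs together took 3.09% and 3.05% of all counts in the controls and 3.21% to 4.21% in the knockout, a mean of 3.78% ± 0.356 (SD, n = 6) against 3.07% ± 0.0283 (SD, n = 2). The difference of 0.715 percentage points had p = 0.0357 in an exact two-sided permutation test, the smallest that 6 against 2 libraries allow, and 0.0952 after adjustment over 8 shares. Unlike the fits, this test ran over all 28 groupings of the libraries and took no account of the series, here and for the other shares. The ERVK share was 0.325% to 0.522% against 0.248% and 0.273% (exact permutation test, p = 0.107, adjusted 0.171), highest in KO-845. The ERV1 share was 0.317% to 0.46% against 0.313% and 0.3% (exact permutation test, p = 0.0357, adjusted 0.0952). The ERVL share was 0.0593% to 0.0741% against 0.0569% and 0.0541% (exact permutation test, p = 0.0357, adjusted 0.0952). For L1, Alu and B2 the exact permutation test gave p = 0.107, 0.179 and 0.25, and for ERVK within the TE counts 0.143. Of the 8 shares none had an adjusted p under 0.05. When subfamilies were scaled by the gene libraries instead, the median log2 fold change of all subfamilies moved from -0.0149 to 0.283 and 51 subfamilies were called higher. LTR84b was among them (log2 fold change 2.95, adjusted p = 0.00401, edgeR), so on that scale the calls were not confined to ERVK. Changes of subfamilies are therefore given relative to the TE total.

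Single ERVK copies were then counted with uniquely mapped reads, on the library sizes of the genes. Of 2806 tested copies 156 were higher (5.56%) and 5 lower in the knockout, and 193 and 10 without KO-845 (edgeR). Of the 156 higher copies 59 had no read in either control, and such copies passed the filter on low counts only through their knockout reads, so the share of tested copies called is no property of a subfamily. MMERVK10C-int gave 27 of its 42 tested copies, IAP1-MM_I-int 22 of 27 and RMER16-int 10 of 21. Genes that rose often lay near such a copy. A copy called higher overlapped the span, introns included, of 12 of the 93 higher genes (12.9%), 0 of the 43 lower genes and 28 of all 16469 tested genes (0.170%). Within 10 kb the numbers were 25 of 93 (26.9%), 0 of 43 and 74 of all (0.449%), and within 50 kb 33 of 93 (35.5%), 0 of 43 and 181 of all (1.1%). Neighbouring genes can share a copy, as Fbxw16, Gm42494 and Gm42493 did with 1 RMER16-int copy, so these genes are not independent counts. Of the 156 higher copies 35 lay within 10 kb of a higher gene and 91 within 10 kb of any tested gene. A copy that could be tested, called or not, lay within 10 kb of 33 of the higher genes (35.5%), 11.6% of the lower and 16.8% of all genes. These copies include the called ones and those that were testable only through knockout reads, so they are no independent background.

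Of the 12 overlapping copies 7 were on the strand of the gene and 5 on the opposite strand. Where gene exons and copy overlap on 1 strand, the same reads can count for both, so these 7 gene and copy values are not independent. Among the 7 were Gbp9, Zfp809 with a MurERV4_19-int copy (0.958) and Gm47015 with an IAPEY4_I-int copy (8.13). Zfp345 and Tcfl5 overlapped a copy on the opposite strand, of RLTR49 (log2 fold change of the copy 4.58) and of RLTR19-int (6.53). Stpg4 overlapped a RLTR42-int copy (6.46) on the opposite strand, and Gm43891 an IAP1-MM_LTR copy on its own strand that was at 7.66. Fbxw19 had a copy of ERVB4_2-I_MM-int (5.97) at 0.976 kb, Zfp992 one of MMERVK9E_I-int (6.02) at 0.327 kb and Vmn1r211 one of RLTR9A3 (5.97) at 2.76 kb. The nearest higher copy was 697 kb from Sparcl1 and 30400 kb from Cdk6, and for Fth1 there was none on its chromosome. Each of the log2 fold changes of copies near 6 rests on few or no control reads.

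The knockout effects of the NPCs and of the Emx1-Cre cortex were compared in 1 fit over the 14 libraries, which share no sample. Trim28 was at 7.46 to 10.5 CPM in the 3 knockout and at 23.4 to 26.9 CPM in the 3 control cortices (log2 fold change -1.44). Of the 93 genes higher in NPCs 23 (24.7%) were also called higher in the cortex, where 85 of 18726 tested genes were (0.454%), so these 23 made up 27.1% of the cortical calls. Of the 43 lower genes Trim28 alone was called lower in the cortex, where 25 genes were (0.134%). Genes of some of the silent clusters were among the shared ones. Fbxw19 was at 0 in all 3 control cortices and at 5.83 to 9.67 CPM in the knockout, Fbxw16 at 0 against 2.98 to 4.12 CPM and Gm43891 at 0 against 10.5 to 13.1 CPM. None of the vomeronasal genes of chromosome 13 was called in the cortex, where Vmn1r211 was at 0 against 0.0930 to 0.190 CPM. BC048671, at 0 against 0.279 to 0.488 CPM, was not called either. Tcfl5 was at 0.469 to 1.51 CPM in control and 16.3 to 20.3 CPM in knockout cortex, a log2 fold change of 4.24 beside 4.09 in NPCs. Zfp345 was at 0 in the control cortices and at 1.40 to 1.95 CPM in the knockout, and Zfp992, Zfp982, Zfp991 and Zfp951 and 6 protocadherins, among them Pcdhgb4 (1.34), were called too.

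The effect differed between NPCs and cortex for 123 genes (0.657%, edgeR, adjusted p under 0.05), among them 33 of the 93 higher and 29 of the 43 lower genes. The NPC effect was the larger in all 62, which had been chosen for their call in NPCs. The 123 became 388 without KO-845, 8 without lacZ-842, 20 without lacZ-867, 21 without the block and 37 to 93 without 1 of the cortex libraries. The median cortical log2 fold change of the higher genes was 0.594, with 63 of 93 in the same direction, and that of the lower genes was -0.0508. Gm14139 was at 0.0634 to 0.279 CPM in the knockout and 0.0558 to 0.0914 CPM in the control cortex, and its effect was larger in NPCs by 4.99 (SE 1.06, adjusted p = 0.0448, edgeR). Cdk6 was at 2.05 to 2.66 CPM in knockout and 2.95 to 3.85 CPM in control cortex (difference of effects 2.03, SE 0.244, adjusted p = 0.00151, edgeR). Gpr17 was as high in knockout (30.3 to 43.2 CPM) as in control cortex (34.1 to 37.0 CPM), and its effect differed by -3.37 (SE 0.448, adjusted p = 0.00291, edgeR). For Fbxw19, Vmn1r211 and Stpg4, among other genes without reads in the control cortices, the standard error of the difference was too large for an estimate. Cultures and tissue also differ in cell types, age and means of deletion, and these cannot be told apart.

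**Figure D5:**
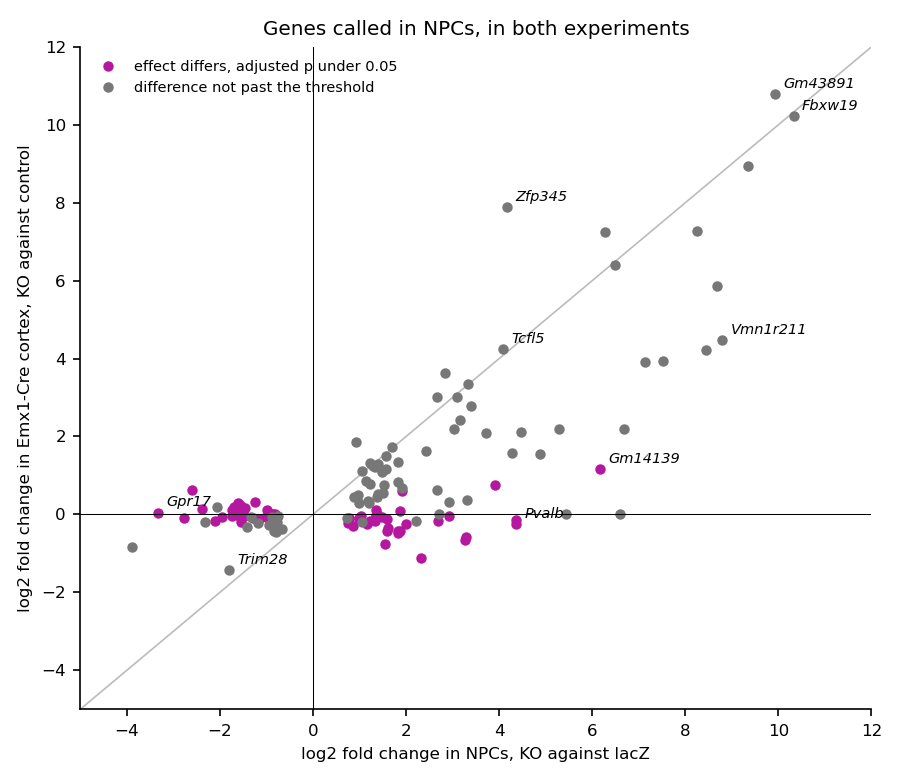
Log2 fold change in the Emx1-Cre cortex (y axis, 3 Trim28-KO against 3 control animals) against that in NPCs (x axis, 6 Trim28-KO against 2 lacZ cultures) for the 136 genes called in NPCs, with the line of equality in grey and genes whose effects differ at an adjusted p under 0.05 in purple. Fbxw19, Gm43891 and Tcfl5 lie near the line, and the 43 lower genes have a median of -0.0508 in the cortex, from -1.44 (Trim28) to 0.62 (Kcne1l). The values of genes without control reads depend on the prior count of the fit.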

How the data were processed

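The authors sequenced stranded, poly-A selected libraries, aligned it with STAR (2.6.0, mouse GRCm38) and deposited raw counts per gene and per TE copy from featureCounts (Subread 1.6.3, uniquely mapped reads) and rounded TEtranscripts counts per TE subfamily, where multimapping reads are divided over the copies they fit. Counts were analysed with edgeR 4.0.16 in R 4.3.3 (filterByExpr, TMM factors, quasi-likelihood test). The design held the number series as a block, because libraries of 1 number series deviated together from their group means (r between 0.532 and 0.706 over genes and 0.320 and 0.400 over subfamilies, all 6 pairs). Calls needed a log2 fold change beyond 0.5 in either direction as well as an adjusted p under 0.05. SE is the log2 fold change divided by the square root of F. Groups at 0 were set against a floor of 3 counts per library, which like all counting limits covers counting error only. Subfamilies kept their own library sizes, single ERVK copies those of the genes. The script was tested on simulated data. The 26 lists, the tests and the members were chosen with earlier results of these data known. Named genes were Trim28, the 10 largest and 10 smallest log2 fold changes of called protein-coding genes, the 5 largest of other biotypes, up to 4 called and 2 abundant uncalled members per list, all called subfamilies and the 3 with the next smallest p. Neighbouring genes, ERVK copies, promoter windows, counts per list without each library, Gm14124, Zfp809, Zfp991, Zfp993, Zfp951, Pcdhgc3, Olfr1349, Cntn1, Nes, Sox2, Setdb1, Isg15 and the genes given for the fit without KO-845 were added after the data were seen. Of 55298 genes 54495 had a GENCODE vM21 symbol. Some items are not reported here. No 2 libraries agreed within sampling noise. Alternatives were DESeq2 1.42.0, RLE size factors, no filter, no block, each series alone, TEtranscripts gene counts, gene library sizes for subfamilies and each library left out.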

Additional observations from a re-analysis of the deposited data

Results flagged for a closer look

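Values of 1 library far from the other 5 of the knockout group (Dixon's test at 95%, 112 values examined, where chance flags about 1 in 20 groups) were found 12 times. In KO-845 they were Fbxw16 at 10.3 CPM, Gm42494 at 4.76, BC048671 at 7.80, Lims2 at 1.66, Zfp488 at 1.44, Pcdhb20 at 35.1, the sodium pump subunit gene Atp1b2 at 989, the oligodendrocyte precursor gene Lhfpl3 at 208, IAP1-MM_I-int at 3540 CPM of TE counts and the ERVK share at 0.522% of all counts. Each of these was the highest of the 6. Olfr1318 was at 16.5 CPM in KO-848, and the gene counts of KO-876 summed to 9996885.

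The knockout effect differed between NPCs and the Emx1-Cre cortex (edgeR, adjusted p under 0.05) for 20 of the genes named by rule. The NPC effect minus the cortex effect, on the log2 scale, was above 0 for Gm14139 (4.99), Pvalb (4.62), Gbp9 (2.25), Pcdhga12 (2.25), Cdk6 (2.03), Pcdhgc5 (1.96), Fth1 (1.54), Trf (1.40) and Sparcl1 (1.36). It was below 0 for Gpr17 (-3.37), Kcne1l (-3.21), Lims2 (-2.68), Gria1 (-2.52), Ak5 (-1.95), Olfm2 (-1.88), Nkd1 (-1.62), Stmn3 (-1.42), Fabp7 (-1.41), Ina (-1.35) and Tdrd7 (-0.81). Pvalb was at 96.1 to 131 CPM in knockout and 118 to 145 CPM in control cortex, far above its level of at most 1.44 CPM in NPCs. Fabp7, a fatty acid binding protein of radial glia that was not called in NPCs (log2 fold change -0.43), was at 45.8 to 68.8 CPM in knockout and 28.2 to 31.9 CPM in control cortex.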

How the results depend on the processing

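Genes called higher and lower numbered 93 and 43. With DESeq2 and the block they were 209 and 103, with no filter on low counts 181 and 110, with the lacZ-867 series alone 54 and 24, with the lacZ-842 series alone 0 and 0, and without the replicate block 29 and 3. Leaving out 1 library gave 4 (without lacZ-842) to 329 (without KO-845) higher and 1 to 256 lower. RLE size factors gave 95 and 45. DESeq2 called 92 of the 93 and all 43. For TE subfamilies the 9 higher became 16 with DESeq2 (1 lower), 3 in the lacZ-842 series alone and 51 with gene library sizes, and 5 to 12 (0 to 1 lower) with 1 library left out. Without the block 8 subfamilies were higher, IAPLTR3-int being lost. The genes whose effect differs from the cortex, 123, became 21 without the replicate block, 423 with no filter, 243 with DESeq2 and 8 to 388 with 1 library left out (lowest without lacZ-842, highest without KO-845). Single ERVK copies were 103 higher without the block. The TE share difference lay between 0.630 and 0.829 percentage points (p above 0.05 without KO-848, KO-851, KO-876 or either control, where 6 against 1 cannot reach it) and that of ERVK between 0.0947 and 0.135 with 1 library left out. Of the 56 called genes and subfamilies named by rule, 9 kept the call whichever library was left out. Direction changed for none of them. The cause of these shifts was not tested. With 2 control libraries the spread of the controls rests on 1 value per series, and KO-876 has the fewest reads, so low genes are least precise there.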
